A study of Gossypium barbadense and Gossypium hirsutum with 4 samples.

Results

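Abundant fibre transcripts that differ between 2 cotton species were taken here as 47 probe sets of an Affymetrix cotton array, out of 24029 that are not array controls. Fibre of VH8-4602, a genotype of Gossypium barbadense, was compared with fibre of Guazuncho 2, a genotype of Gossypium hirsutum. Both were sampled at 11 days post-anthesis, that is, after the flower opened, from plants raised in soil in a glasshouse at 30 °C by day and 22 °C by night, with no treatment. Each genotype had 2 arrays, all 4 labels give the same harvest date, and nothing in them says whether replicate samples came from separate plants or pools. A probe set was a member when its ID began with Ghi. or GhiAffx., its log2 signal was above 10 on all 4 arrays, the genotype means differed by at least 1.5 on the log2 scale, and no other probe set carried its ID number. A log2 difference of 1.5 is 2.83-fold.

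Cotton fibres are single cells of the seed coat epidermis that elongate for weeks before they lay down a thick cellulose wall. The sampled age falls in the phase of elongation, when the cell makes membrane, primary wall and cytoskeleton at a high rate. Gossypium hirsutum, Upland cotton, gives most of the fibre grown in the world, and Gossypium barbadense is known for longer and finer fibre. Both species carry 2 subgenomes, so that most genes are present as a pair of similar copies, and a probe set may read either copy or both.

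The tables used here do not pair the probe sets with genes, so no member could be given a gene name, a role or a sequence, and the tissue label could not be checked against fibre markers. Members are described by their values, by their rank in size of difference within each direction, and for the 2 largest differences in each direction by probe set ID. The members were chosen by the signals of these 4 arrays and by this contrast itself. Every difference below is therefore a description, with no test. The amount of a transcript and the fit of the array's probes to each species' sequence both set the signal, and they cannot be told apart on these arrays. In bulk fibre, fewer cells of a kind and less RNA per cell cannot be told apart either.

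Of the 47 members, 20 were higher and 27 lower in VH8-4602. The members higher in VH8-4602 differed by 1.52 to 3.92 on the log2 scale, with a median of 1.85, or 2.86-fold to 15.2-fold with a median of 3.59-fold. Those lower in VH8-4602 differed by -3.20 to -1.53, with a median of -1.92, or 2.88-fold to 9.19-fold with a median of 3.79-fold. A difference of at least 2, which is 4-fold, was reached by 8 of the higher and 10 of the lower members, and one of at least 2.5 by 4 and 3. Only 1 member in each direction passed 3.

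**Figure D1:**
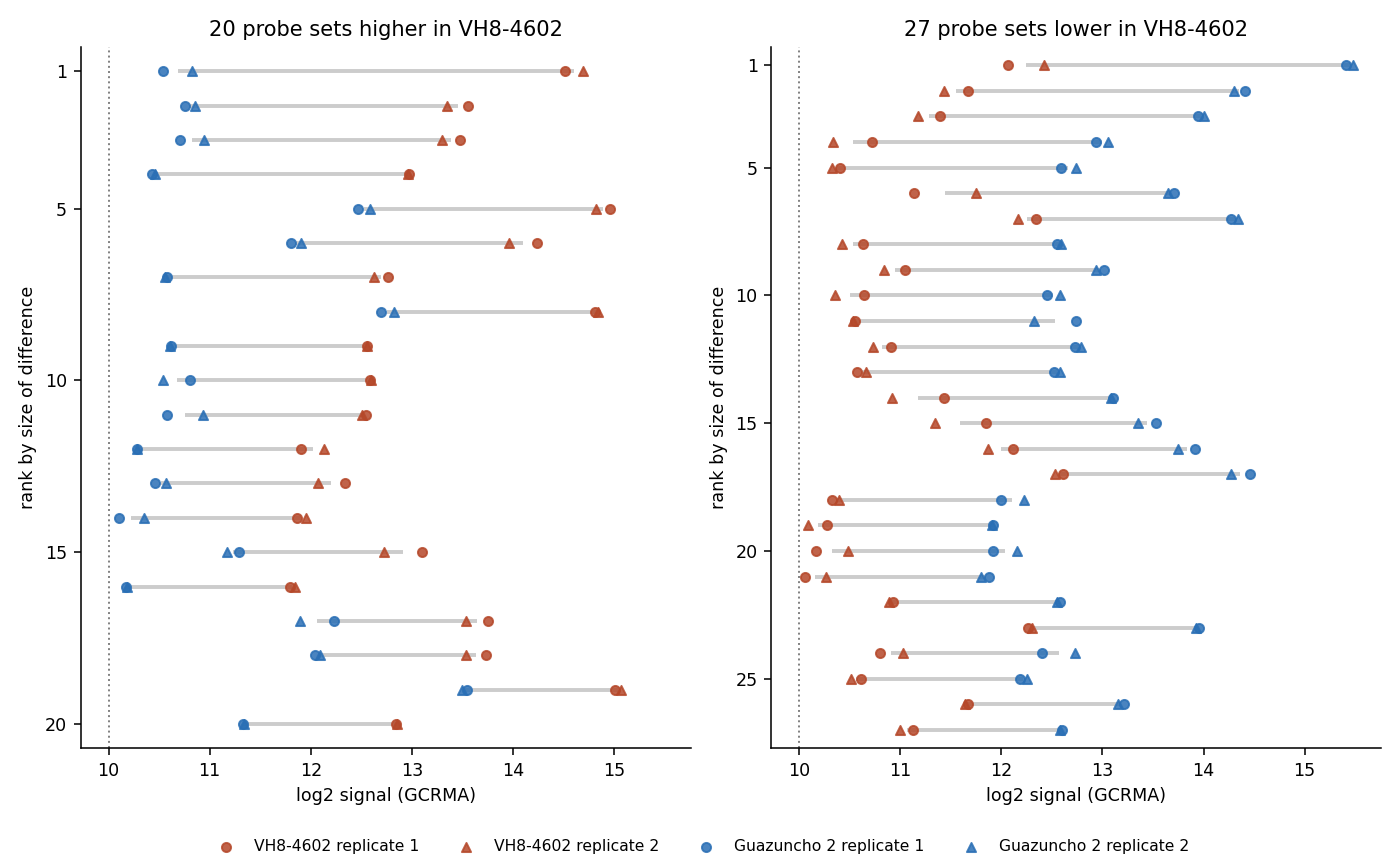
Log2 signal (GCRMA, horizontal axis) of each of the 47 probe sets on each of the 4 arrays, ranked from the largest difference at the top (vertical axis), for the 20 higher (left) and the 27 lower in VH8-4602 (right). Symbols are single arrays, grey lines join the genotype means and the dotted line is the level of 10 that every array had to pass. The arrays of the genotypes are apart in all 47, and rank 1 on the left has the widest line, at 3.92.

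Among members higher in VH8-4602, the widest difference stood well apart from the next. GhiAffx.53241.1.S1_at read 14.52 and 14.70 in VH8-4602 against 10.54 and 10.83 in Guazuncho 2. Its means were 14.61 ± 0.13 and 10.68 ± 0.20 (SD, n = 2), a log2 difference of 3.92 or 15.2-fold. Both VH8-4602 arrays were thus far above both others, and the nearest arrays of the 2 genotypes were 3.69 apart. Ghi.5225.1.A1_at came second, with 13.56 and 13.35 in VH8-4602 against 10.75 and 10.85 in Guazuncho 2. Its difference was 2.65, or 6.28-fold, with SDs of 0.15 and 0.07 (n = 2).

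The 3rd and 4th members of this direction lay close behind. Rank 3 read 13.48 and 13.30 in VH8-4602 against 10.70 and 10.95, a difference of 2.56. Rank 4 read 12.97 and 12.96 against 10.43 and 10.46, a difference of 2.52. Its replicates were nearly alike in both genotypes. Ranks 5 to 8 had differences of 2.37, 2.24, 2.13 and 2.07, and the other 12 lay between 1.52 and 1.94.

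Some higher members were bright in both genotypes. Rank 5 read 14.96 and 14.82 in VH8-4602 against 12.46 and 12.59 in Guazuncho 2. Rank 8 read 14.81 and 14.85 against 12.70 and 12.82. Rank 19 read 15.01 and 15.07 against 13.55 and 13.49, a difference of 1.52, and its Guazuncho 2 mean of 13.52 was the highest mean of any member in its dimmer genotype. In these 3 the dimmer genotype lay over 2 log2 units above the level required.

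Among members lower in VH8-4602, the 3 widest differences were all of probe sets with the suffix _x_at, which in Affymetrix naming marks probes that may also match other sequences. GhiAffx.15534.1.S1_x_at read 12.07 and 12.42 in VH8-4602 against 15.41 and 15.48 in Guazuncho 2. Its means were 12.25 ± 0.25 and 15.45 ± 0.05 (SD, n = 2), a log2 difference of -3.20 or 9.19-fold. The Guazuncho 2 mean was the highest of any member in either genotype, on arrays whose highest values were 16.13 and 16.16. Ghi.5687.1.A1_x_at read 11.67 and 11.44 against 14.41 and 14.30, a difference of -2.80 or 6.98-fold, with SDs of 0.16 and 0.08 (n = 2).

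Rank 3 of the lower members read 11.40 and 11.18 in VH8-4602 against 13.94 and 14.01 in Guazuncho 2, a difference of -2.68. Rank 4, with 10.72 and 10.34 against 12.93 and 13.06, differed by -2.47, and rank 5, with 10.40 and 10.33 against 12.59 and 12.74, by -2.30. Both had VH8-4602 arrays within 1 log2 unit of the level required. Rank 7 stayed above 12 in both genotypes, at 12.34 and 12.16 against 14.27 and 14.34, a difference of -2.05. The 20 members from rank 8 on lay between -2.04 and -1.53.

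Rank 6 of the lower members had the least even replicates of all 47. It read 11.14 and 11.75 in VH8-4602 and 13.71 and 13.64 in Guazuncho 2, so that its VH8-4602 arrays were 0.61 apart. Its difference of -2.23 was 3.65 times that gap, and this was the smallest such ratio over the members. Over all members the median ratio of the difference to the larger of the 2 replicate gaps was 9.46. The rule required a difference of at least 1.5, and median gaps over the 2405 abundant probe sets were 0.09 in VH8-4602 and 0.07 in Guazuncho 2. Large ratios follow from the rule, so nothing is read from them.

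The arrays of the genotypes did not overlap in any member, and the distance between the nearest arrays ran from 1.30 to 3.69, with a median of 1.66. For the members higher in VH8-4602 it ran from 1.30 to 3.69 and for those lower from 1.37 to 2.99. Arrays also did not overlap in 78.4% of the 12603 probe sets with log2 signal above 4 on at least 2 arrays (44.3% higher and 34.1% lower in VH8-4602), and in 80.1% of the 2405 abundant ones with an ID number of their own. All 47 members passed limma with a Benjamini-Hochberg adjusted p under 0.05, where 45.9% of the 12603 probe sets tested did. By direction, 20 of 20 were called higher (25.1% of those tested) and 27 of 27 lower (20.9%). The rule used the same contrast and arrays, so nothing is read from these counts. The SE of a member's difference in that fit was 0.08 to 0.22.

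The floor of 10 was set to keep the members far from the array background. Many were not far above that floor in their dimmer genotype. The mean of the dimmer genotype was below 11 in 27 of the 47 and below 10.5 in 9. Among the higher members it ran from 10.18 to 13.52 with a median of 10.78, and among the lower from 10.16 to 12.57 with a median of 10.91. The brighter genotype had a mean of 11.82 to 15.45, and this was above 13 in 20 members and above 14 in 9. On each array between 16.9% and 17.1% of the probe sets that are not array controls read above 10.

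The edges of the rule cut through a continuous range. The last members inside differed by 1.52 and -1.53, and the first probe sets outside by 1.489 and -1.497. Within 0.1 of the threshold there were 6 members and 11 probe sets just short of it. The lowest array value of any member was 10.05, and a probe set that failed only the level had 9.995 on its lowest array.

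Differences of this size were rare among abundant probe sets. Of the 2405 Ghi and GhiAffx probe sets above 10 on all arrays with an ID number of their own, 1.95% were members, 0.832% higher and 1.12% lower in VH8-4602. Of all 12603 probe sets tested, 9.66% differed by at least 1.5, 4.25% higher and 5.4% lower. The 12603 also include other prefixes and shared ID numbers, so they differ from the 2405 in more than level. The median size of a difference over the 2405 was 0.27, and their 5th and 95th percentiles were -0.79 and 0.78.

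Over Ghi and GhiAffx probe sets with an ID number of their own, the share past 1.5 fell with the level of the lowest array. It was 15.8% of 1039 at 4 to 6, 9.91% of 1776 at 6 to 8, 5.42% of 1034 at 8 to 9 and 3.69% of 1085 at 9 to 10. Within the range of the members it was 3.08% of 909 at 10 to 11, 1.66% of 662 at 11 to 12 and 1.44% of 485 at 12 to 13. Above 13 there was 1 member among 349, the higher member of rank 19. A probe set's lowest array is lower where its genotypes differ, which by itself moves differing probe sets to a lower level.

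**Figure D2:**
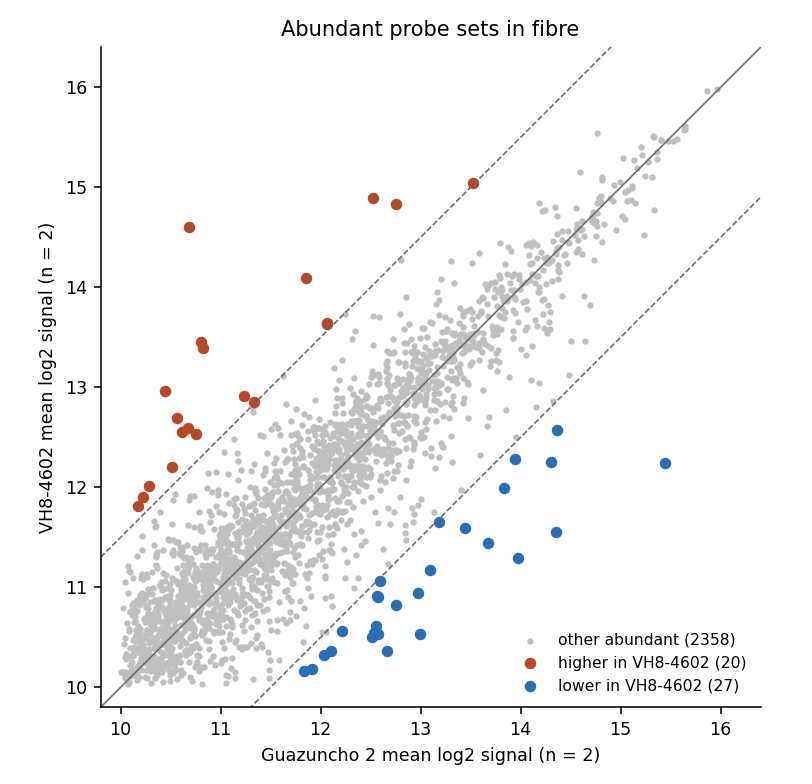
Mean log2 signal of Guazuncho 2 (horizontal axis) and VH8-4602 (vertical axis), 2 arrays each, for the 2405 abundant probe sets. The solid line marks equal signal and the dashed lines a difference of 1.5; the 20 members higher in VH8-4602 lie above the upper dashed line, the 27 lower ones below the other, and the other 2358 between them.

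On the deposited scale the balance of directions varied with the size of difference counted. By at least 0.5, VH8-4602 was the higher genotype in 329 of the 2405 abundant probe sets and the lower in 246. At 1 or more 67 were higher and 78 lower, at 2 or more 8 and 10, and at 2.25 or more 5 and 5. At 2.5 or more there were 4 and 3, at 2.75 or more 1 and 2, and at 3 or more 1 and 1. From 2 on the counts are too small for a balance to be read.

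This balance depended on the scale, and the scales tried did not all move it the same way. Under the same rule, quantile normalization gave 21 higher and 29 lower. Centring each array on its median gave 25 and 25. Setting the hybridization controls equal moved the balance to the lower side. Spiked hybridization controls (27 probe sets) had a mean signal of 11.24 ± 0.01 on the VH8-4602 arrays, against 10.95 ± 0.14 for Guazuncho 2 (SD, n = 2). After a shift of each array that made their means equal, the median difference over the 12603 probe sets was -0.24 in place of 0.05, and 58 probe sets met the rule, 11 of them higher and 47 lower. Those higher were 19.0% of the 58, and 42.6% of the 47 as deposited. On that scale the lower side was the larger also at 0.5 or more, with 129 higher and 555 lower, at 1 or more, with 34 and 132, and at 2 or more, with 6 and 19. Of the 20 higher members 10 were still inside the rule, and of the 27 lower 25. The shift moves every difference alike, and the smallest was then 1.22 among the higher members and -1.82 among the lower. The controls themselves were not offset alike, with a smaller offset at high signal. AFFX-Ghi-r2-Ec-bioB-5_at read 8.18 and 8.27 in VH8-4602 against 7.48 and 7.86, and AFFX-Ghi-r2-P1-cre-3_s_at 15.33 and 15.30 against 15.14 and 15.23. A shift by 1 mean thus need not fit members at every level.

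**Figure D3:**
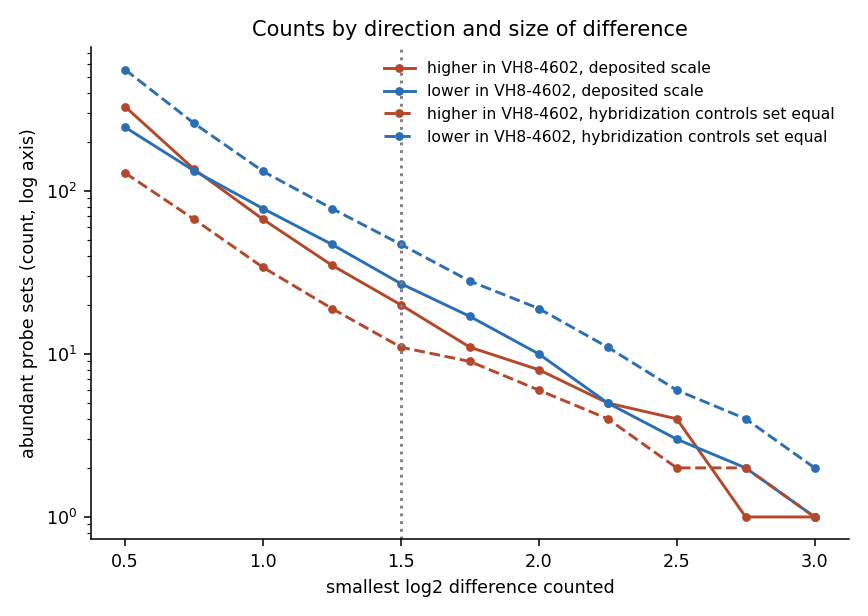
Number of abundant probe sets with their own ID number (vertical, log axis) that were higher (red) or lower (blue) in VH8-4602 by at least the log2 difference on the horizontal axis, on the deposited scale (solid) and with hybridization controls set equal (dashed). The dotted line marks 1.5, where the counts are 20 and 27 on the deposited scale and 11 and 47 with the controls equal.

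Replicate arrays of VH8-4602 were less even for the members than for abundant probe sets at large. The floor and the difference of the rule act on these same values, and the 2405 were not matched to the members in level. The gaps here and in the next paragraph are thus a description, with no test, and no trait of the members is read from them. The median gap between the 2 VH8-4602 arrays was 0.18 over the members and 0.09 over the 2405. Between the Guazuncho 2 arrays it was 0.08 over the members and 0.07 over the 2405. A gap above 0.3 was seen in VH8-4602 for 7 of 47 members (4.12% of the 2405) and in Guazuncho 2 for 4 (3.45%).

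These uneven members were mostly among those lower in VH8-4602. There, 6 of 27 had a VH8-4602 gap above 0.3, with a median gap of 0.21, against 1 of 20 and a median of 0.14 among the higher. Replicate 1 of VH8-4602 read above replicate 2 in 19 of the 27 lower members and 11 of the 20 higher ones, against 43.6% of the 2405. The gap was larger in VH8-4602 than in Guazuncho 2 in 21 of the 27 lower members and 11 of the 20 higher ones, against 55.9% of the 2405. In Guazuncho 2 the median gap was 0.11 among the higher members and 0.07 among the lower. Over the 47 members the gap was larger in the dimmer genotype in 30, with medians of 0.13 in the dimmer and 0.08 in the brighter. No such share was taken over the 2405, so nothing is read from this count. The largest gap of any member was 0.61, and over the 2405 the largest was 1.05 in VH8-4602 and 0.95 in Guazuncho 2.

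**Figure D4:**
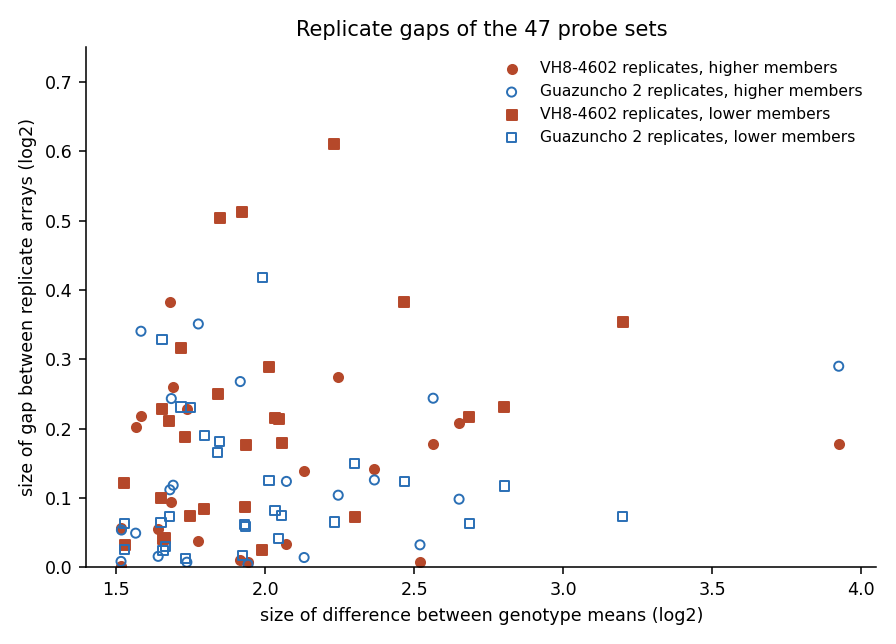
Size of the gap between replicate arrays (log2, vertical axis) against the size of the difference between genotype means (log2, horizontal axis) for the 47 members, with a filled symbol for VH8-4602 and an open one for Guazuncho 2. The largest gap is 0.61, and no difference is under 1.52, since the rule required at least 1.5.

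A few members depended on 1 array. When the rule was applied to 3 arrays, with the lone array standing for its genotype, it chose 47 to 52 probe sets, among them 44 of the 47 members without VH8-4602 replicate 1, 45 without VH8-4602 replicate 2, 46 without Guazuncho 2 replicate 1 and 44 without Guazuncho 2 replicate 2. The array left out was at least 1.5 from the other genotype's mean in 43 of 48 for VH8-4602 replicate 1 and 43 of 52 for replicate 2. For Guazuncho 2 this held in 43 of 47 for replicate 1 and 45 of 48 for replicate 2. The smallest distance on an array left out was 1.21. Since no replicate gap over the 2405 reached 1.5, a change of direction could hardly occur, and none is counted here. These distances used the same mean of the other genotype that chose the probe sets, and most replicate gaps were small. The counts past 1.5 were thus largely fixed by the choice, and nothing is read from them.

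Probe set IDs carry features of the array's design. The members and the 2405 abundant probe sets met the same conditions on the prefix and the ID number. The rule set no condition on the rest of the ID. The suffix _at marks probes meant for 1 transcript, and _s_at marks probes shared by several similar transcripts. Of the members 15 had _at, 27 _s_at and 5 _x_at, or 31.9%, 57.4% and 10.6%. Among the 2405 abundant probe sets these shares were 30.6%, 60.9% and 7.73%, so these 3 suffixes had similar shares in both. A 4th, _a_at, was on 18 of the 2405 and on 0 members. The members with _x_at were 1 higher and 4 lower, with a median size of difference of 2.68, against 1.78 for _at and 1.85 for _s_at.

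By prefix, 35 members were Ghi and 12 GhiAffx, so that Ghi made up 74.5% of members and 66.1% of abundant probe sets. The last field of the ID before the suffix begins with A or S. It was A in 18 of the 47, or 38.3%, and in 23.6% of the abundant probe sets. It was A in 10 of the 20 higher and 8 of the 27 lower members. Put the other way, 3.17% of abundant probe sets with A and 1.58% of those with S were members.

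Control transcripts are read at both ends. For Ghi-actin the 5' minus 3' log2 signal was -3.05 ± 0.03 in VH8-4602 and -2.35 ± 0.23 in Guazuncho 2, and for Ghi-ss1 it was -4.96 ± 0.13 and -4.12 ± 0.71 (SD, n = 2). For Ghi-ubq11 it was -1.87 ± 0.10 and -1.58 ± 0.31. All 3 were lower in VH8-4602, by about the spread of the Guazuncho 2 arrays for Ghi-ss1 and Ghi-ubq11 and by more for Ghi-actin. The part of these values in the differences of the members was not tested.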

How the data were processed

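Fibre RNA of 2 genotypes was labelled with biotin and hybridized to 4 Affymetrix cotton arrays. The authors deposited log2 signals; the tool was GCRMA, as the submitters' processing notes name it. Its version is not given in the sources used here, and the log2 scale was inferred from the values. GCRMA corrects background, equalizes the arrays' distributions and summarizes probes into probe sets, so a shift common to most transcripts is lost. Groups came from the genotype labels, and replicate numbers only name arrays.

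Values were used as deposited. The members and lists were chosen with earlier results of these data known. VH8-4602 minus Guazuncho 2 was fitted with limma 3.58.1 in R 4.3.3 (lmFit, eBayes, no covariates, Benjamini-Hochberg) on 12603 probe sets above log2 4 on at least 2 arrays, AFFX controls left out, and checked on simulated data. It had 2 residual and 2.56 prior degrees of freedom. Nothing says that replicates are separate plants, so p-values cover array-to-array spread that may be technical. The number of arrays limits precision. Probe sets were named by a rule: the 2 largest differences per direction. The gene lists of the design could not be filled, since no table used here names the genes. Alternatives were other floors, differences, scales and filters, and each array left out. Figures used matplotlib 3.10.9.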

Additional observations from a re-analysis of the deposited data

How the results depend on the processing

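Counts of members follow the rule's own limits. A floor of 9 gave 87 (34 higher and 53 lower in VH8-4602), and a floor of 11 gave 19 (8 and 11, 1.27% of abundant probe sets, median difference of the higher 1.63). A difference of at least 1 gave 145 (67 and 78, 6.03%) and one of at least 2 gave 18 (8 and 10, 0.748%). Fewer or more probe sets are inside by construction. With hybridization controls set equal there were 11 higher and 47 lower, with medians of 2.07 and -1.82, since that setting shifts every VH8-4602 value down against Guazuncho 2. Quantile normalization gave 50 (21 and 29), centring on medians 50 (25 and 25), a floor on genotype means 49, and no condition on the ID number 65. Leaving out each array gave 47 to 52 members, 18 to 23 higher and 26 to 30 lower, with medians of 1.753 to 1.95 and -1.95 to -1.85. Limma called 38 members with no moderation and 47 in the other settings run, among them a robust prior added after seeing the data; the members were chosen by this contrast, so this count says nothing of stability. With an array left out, the lone array is assumed to vary like those of the other genotype. No paired analysis was possible because the labels number the arrays of each genotype differently. Floors of 9 and 11, other differences and hybridization controls set equal moved the counts per direction more than leaving out an array did. So did no condition on the ID number, with 29 higher and 36 lower. Centring on medians moved the higher count more, to 25, but not the lower count.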

Other observations

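A further 18 Ghi probe sets met the level and the difference but shared their ID number with other probe sets, 9 higher and 9 lower in VH8-4602, out of 773 abundant ones with a shared number (2.33%). They carried 17 ID numbers. Their 23 companions of the same number had the same direction in 18 cases. Direction was counted at any size and level, so that a companion with a lowest array of 2.16 and a difference of 0.05 was included. Of the 7 companions above 10 on all arrays 5 had the same direction. Of these, 2 also passed 1.5, and they are a pair with 1 number that is itself among the 18. Members with an ID number of their own have no such companion, so their differences could not be read on a further probe set.

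Probe sets with the prefixes Gra and GraAffx above 10 on all arrays with their own ID number numbered 186. Of these, 5 (2.69%) differed by at least 1.5, with 0 higher and 5 lower in VH8-4602. The difference between this balance and the 20 higher and 27 lower members was not tested.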
